A study of Mus musculus with 7 samples.

Results

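The colony-stimulating factors are secreted proteins that control the production, survival and function of myeloid cells. CSF1 (M-CSF) and the structurally distinct cytokine IL34 both act through the receptor tyrosine kinase CSF1R, on which most tissue and tumor macrophages depend. CSF2 (GM-CSF) acts through CSF2RA and the shared beta chain CSF2RB, and CSF3 (G-CSF), the main growth factor of neutrophils, acts through CSF3R. The 4 ligand genes and 4 receptor genes, *Csf1*, *Il34*, *Csf2*, *Csf3*, *Csf1r*, *Csf2ra*, *Csf2rb* and *Csf3r*, were taken by name from an RNA-sequencing table of 53465 gene identifiers. Each of the 8 matched 1 identifier. *Csf2rb2*, a paralogue of *Csf2rb*, was read beside them.

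EMT6 cells derive from a mouse mammary carcinoma, and 500000 of them were placed in the mammary fat pad of young female Balb/c mice. The 3 EMT6-P tumors were parental and grew under isotype control IgG. The 3 EMT6-PTR tumors (written EMT6 PDR in the labels) and 1 metastasis came from the variant resistant to αPD-L1, which was derived from tumors that grew again under the antibody, and they grew under αPD-L1. Antibody was given at 250 μg per mouse every 3 days from day 1 until the institutional endpoint, so that the resistant variant and the αPD-L1 exposure cannot be told apart. The metastasis has no replicate, and no source used here names its organ. The labels do not state that the 3 replicates of a group, called tumors here, came from separate mice. The study's own figure legends call replicates technical where nothing else is stated, and the RNA panels state nothing else, so that p-values measure only the spread between these libraries, which may be technical.

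Libraries held 20430110 to 25213472 estimated counts. Values are CPM (counts scaled for library size on an upper-quartile scale shared by the 7 libraries), and levels of different genes were compared only as CPM per kilobase of exon. Some libraries stood apart. EMT6-PTR replicate 3 had the lowest summed CPM of carcinoma epithelial markers (595, against 2105 to 2348 in the other primary tumors) and of cell cycle genes (198, against 1000 to 1253), and the highest of fibroblast markers (11867, against 4965 to 7281). The fibroblast markers did not move alike. *Col1a2*, *Pdgfra*, *Dcn*, *Lum* and *Fap* were highest in that tumor, and *Col1a1* lay within the others. *Thy1* (6.68 CPM, against 63.2 to 114) and *Pdpn* (39.3 CPM, against 60.2 to 77.4) were lowest. In EMT6-PTR replicate 2, 13.8% of counts fell on CT010467.1, against 0.433% to 1.35% elsewhere, and EMT6-PTR replicate 1 had a summed CPM of 3729 for skeletal muscle markers, against 4.65 to 670 in the other primary tumors. These are whole-tissue libraries, in which fewer cells of a type and less RNA per cell cannot be told apart.

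*Csf2rb* and *Csf2rb2* share much of their sequence, which bears on the first of these receptors. In the GRCm38 assembly, *Csf2rb* lies on the plus strand at chr15:78325752-78353847 and *Csf2rb2*, which encodes a beta chain used by IL3, on the minus strand at chr15:78282507-78305721. Of 2628 aligned coding bases, 2503 (95.2%) were identical, and the longest identical run was 242 bases. A pair of coding stretches shows how a read could or could not be placed, with the bases that differ in capitals and the rest in lower case, each written 5′ to 3′ on the strand of its gene. The first pair lies in exon 6 of both genes and differs at 1 of 120 bases.
Csf2rb, chr15:78340722-78340841 (plus strand): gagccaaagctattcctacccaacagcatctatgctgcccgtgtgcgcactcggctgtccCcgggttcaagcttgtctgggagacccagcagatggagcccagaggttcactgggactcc
Csf2rb2, chr15:78292468-78292587 (minus strand): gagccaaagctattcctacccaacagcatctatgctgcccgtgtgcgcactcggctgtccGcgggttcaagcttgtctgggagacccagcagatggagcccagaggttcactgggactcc
The second pair lies in exon 4 and differs at 16 of 120 bases, the most of any such stretch that lay within 1 exon of each gene without a gap.
Csf2rb, chr15:78338867-78338986 (plus strand): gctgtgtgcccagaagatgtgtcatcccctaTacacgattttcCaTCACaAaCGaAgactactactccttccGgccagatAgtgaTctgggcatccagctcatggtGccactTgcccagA
Csf2rb2, chr15:78294345-78294464 (minus strand): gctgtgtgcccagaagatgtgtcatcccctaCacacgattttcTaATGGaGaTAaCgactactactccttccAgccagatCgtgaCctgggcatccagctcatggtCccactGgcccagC

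The estimated counts of the pair moved against each other in fractions of a count. *Csf2rb* alone was fractional in 6 of 7 libraries, whereas the sum of *Csf2rb* and *Csf2rb2* was whole in 7 of 7 (within 0.011 counts). The sums were 1601, 1343 and 1510 in EMT6-P, 2616, 1302 and 1428 in EMT6-PTR and 3808 in the metastasis, with EMT6-PTR replicate 1 the highest of the primary tumors. *Csf2rb* took 60.3% to 69.2% of the sum in the 6 primary tumors and 78.2% in the metastasis. Values of *Csf2rb* below are therefore estimates of a split between both genes.

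**Figure D1:**
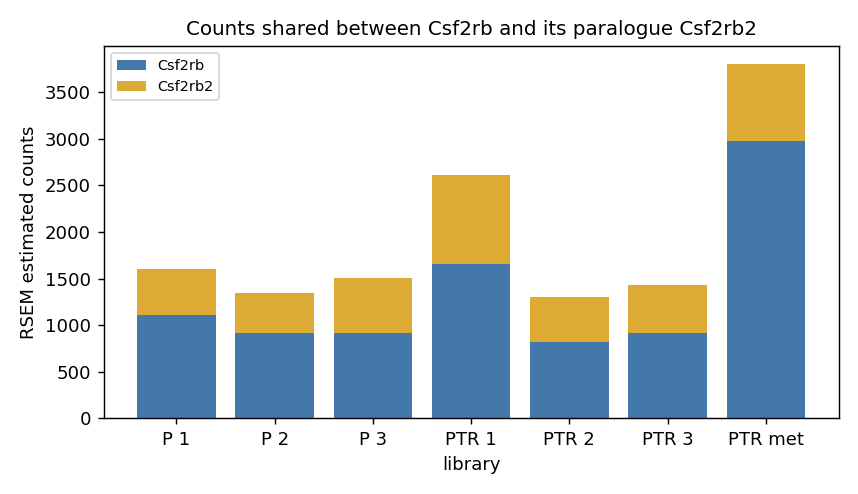
RSEM estimated counts (vertical axis) of Csf2rb (blue) and its paralogue Csf2rb2 (yellow), stacked for each of the 7 libraries (horizontal axis). The summed bar is highest in the metastasis (3808), and the Csf2rb share is 78.2% there against 60.3% to 69.2% in the primary tumors.

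Between EMT6-PTR and EMT6-P primary tumors, none of the 8 genes passed the test. All 8 passed the filter on low counts. By edgeR's quasi-likelihood test 0 of them reached an adjusted p under 0.05, and without adjustment 0 did. Across the 15645 genes tested, the called share was 0.0% after adjustment and 11.4% (1786 genes) before it, 5.84% higher and 5.57% lower in EMT6-PTR. Limma-voom also called 0 genes, and DESeq2 called 153 (0.947%), of which 0 were among the 8. Of the 8 log2 fold changes 4 were above 0 and 4 below, against 52.3% and 47.7% of all genes. Its median was -0.11 over the 8 and 0.03 over all genes tested. In edgeR no gene of the 8 reached a 2-fold change (7.56% of all genes). In 0 of the 8 did the 3 EMT6-PTR tumors lie apart from the 3 EMT6-P tumors (21.3% of all genes, 9.52% higher and 11.8% lower).

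**Figure D2:**
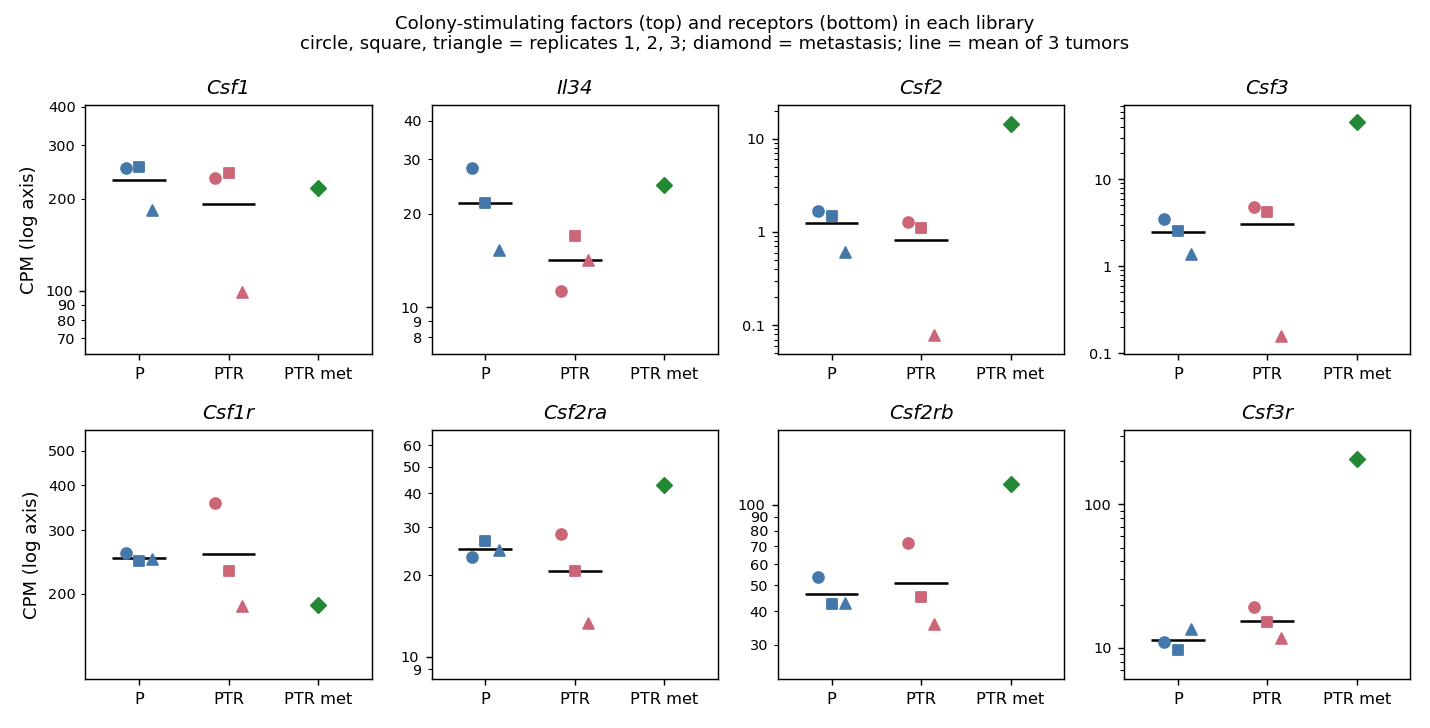
CPM on a log axis for the 4 ligand genes (top row) and 4 receptor genes (bottom row) in EMT6-P (blue), EMT6-PTR (red) and the EMT6-PTR metastasis (green diamond), with circles, squares and triangles for replicates 1, 2 and 3 and lines at the mean of 3 tumors. The EMT6-P and EMT6-PTR points overlap for every gene, the metastasis lies above all 6 primary tumors for Csf2, Csf3, Csf2ra, Csf2rb and Csf3r, and EMT6-PTR replicate 3 is the lowest primary tumor for Csf1, Csf2, Csf3, Csf1r, Csf2ra and Csf2rb.

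Among the ligands, *Csf1* (chr3:107741048-107760469, minus strand), the growth factor of macrophages, was the most abundant per kilobase of exon. It was at 252, 254 and 184 CPM in EMT6-P and at 235, 243 and 99.4 CPM in EMT6-PTR. The groups overlapped, with EMT6-PTR replicates 1 and 2 inside the EMT6-P range and replicate 3 below every other tumor. Means were 230 ± 39.9 CPM (SD, n = 3) in EMT6-P and 193 ± 80.8 CPM (SD, n = 3) in EMT6-PTR. The log2 fold change was -0.26 ± 0.35 (SE, edgeR adjusted p = 0.772). With EMT6-PTR replicate 3 left out, it was 0.05. *Csf1* and *Csf2* stand on a preliminary list of secreted genes lower in EMT6-PTR that the study drew up on these same tumors, so that this list is not independent evidence of their direction. For RNA the study's methods name a fold change beyond 2, whereas its figure legend for secretory genes names a log2 fold change of at least 2 in size. Neither gene reached either cutoff in the edgeR fit here, where *Csf1* was at -0.26 and *Csf2* at -0.63 on the log2 scale. In limma-voom *Csf1* was at -0.34 and *Csf2* at -1.25 (limma-voom adjusted p = 0.633). *Csf2* was thus beyond the cutoff of the methods in that fit, though not beyond that of the legend. *Csf1* is also on the study's shorter list, for which protein measurements of EMT6-PTR cells were used besides, and these were not analysed here.

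*Il34* (chr8:110741829-110805924, minus strand), the second ligand of CSF1R, had the smallest p of the 8 in edgeR. Its levels were 28.1, 21.7 and 15.3 CPM in EMT6-P and 11.3, 16.99 and 14.2 CPM in EMT6-PTR. Replicates 1 and 3 of EMT6-PTR lay below all EMT6-P tumors, whereas replicate 2 lay above EMT6-P replicate 3. Means were 21.7 ± 6.42 and 14.2 ± 2.84 CPM (SD, n = 3 each). The log2 fold change was -0.62 ± 0.27 (SE), with an edgeR adjusted p of 0.448. *Il34* was the ligand in which EMT6-PTR replicate 3 did not have the lowest value of its group.

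*Csf2*, the ligand of the GM-CSF receptor (chr11:54247271-54249667, minus strand), was close to the limit of detection. It had 34, 31.95 and 13 estimated counts in EMT6-P and 29, 20 and 2 in EMT6-PTR, the last below the 3 counts that a listed 0 would allow. As CPM these were 1.66, 1.495 and 0.613 against 1.27, 1.11 and 0.078. EMT6-PTR replicates 1 and 2 were inside the range of EMT6-P and replicate 3 was under it. The log2 fold change was -0.63 ± 0.87 (SE, edgeR adjusted p = 0.776), a standard error larger than the change itself. Without EMT6-PTR replicate 3 it was -0.07.

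*Csf3* (chr11:98701263-98703629, plus strand), the neutrophil growth factor, varied most of the 8 within EMT6-PTR. Its estimated counts were 71, 55 and 29 in EMT6-P and 110, 76 and 4 in EMT6-PTR, which gave 3.46, 2.57 and 1.37 CPM against 4.80, 4.23 and 0.156 CPM. EMT6-PTR replicates 1 and 2 were above every EMT6-P tumor and replicate 3 was below every one. The highest EMT6-PTR value was 30.7 times the lowest, against 2.53 times in EMT6-P. The log2 fold change was 0.31 ± 1.00 (SE, edgeR adjusted p = 0.915). It was 0.87 without replicate 3 and -0.19 without replicate 1 of EMT6-PTR.

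Of the receptors, *Csf1r*, the receptor of CSF1 and IL34, was the most abundant receptor per kilobase and the most even of the 8 genes in EMT6-P. It was at 259, 246 and 249 CPM in EMT6-P, where the highest was 1.05 times the lowest. In EMT6-PTR it was at 358, 231 and 185 CPM, a 1.93-fold range, with replicate 1 above and replicates 2 and 3 below all EMT6-P tumors. Means were 251 ± 6.53 and 258 ± 89.2 CPM (SD, n = 3 each), with a log2 fold change of 0.04 ± 0.25 (SE, edgeR adjusted p = 0.958). The means therefore nearly coincided, while the SD differed between the groups. This difference in spread was not tested.

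*Csf2ra* (chr19:61223957-61228429, minus strand), the ligand-binding chain of the GM-CSF receptor, was at 23.2, 26.8 and 24.8 CPM in EMT6-P. In EMT6-PTR it was at 28.3, 20.7 and 13.3 CPM. As for *Csf1r*, replicate 1 was above and replicates 2 and 3 were below the EMT6-P range. The log2 fold change was -0.27 ± 0.28 (SE, edgeR adjusted p = 0.699).

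*Csf2rb*, the signalling chain shared by the receptors of GM-CSF, IL3 and IL5, was at 54.0, 42.5 and 43.0 CPM in EMT6-P and at 72.0, 45.4 and 35.9 CPM in EMT6-PTR. Replicate 1 of EMT6-PTR was again the highest and replicate 3 the lowest of the 6 tumors. The log2 fold change was 0.14 ± 0.27 (SE, edgeR adjusted p = 0.851). *Csf2rb2* was at 24.1, 20.2 and 28.3 CPM against 42.1, 27.1 and 19.9 CPM, also with replicate 1 of EMT6-PTR highest and replicate 3 lowest, and its log2 fold change was 0.30 (edgeR adjusted p = 0.684). With the counts of both genes summed, an alternative chosen after the data were seen, the log2 fold change was 0.19 (edgeR adjusted p = 0.777).

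*Csf3r* (chr4:126024550-126044440, plus strand), the G-CSF receptor, had the lowest mean level of the receptors per kilobase in the primary tumors. It was at 10.9, 9.67 and 13.6 CPM in EMT6-P and at 19.1, 14.98 and 11.7 CPM in EMT6-PTR. Replicates 1 and 2 of EMT6-PTR were above every EMT6-P tumor, and replicate 3 lay within their range. Means were 11.4 ± 2.01 and 15.3 ± 3.70 CPM (SD, n = 3 each), and the log2 fold change was 0.42 ± 0.25 (SE, edgeR adjusted p = 0.517). It was the receptor with the largest log2 fold change in size, and 80.1% of all genes tested had a lower one.

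**Figure D3:**
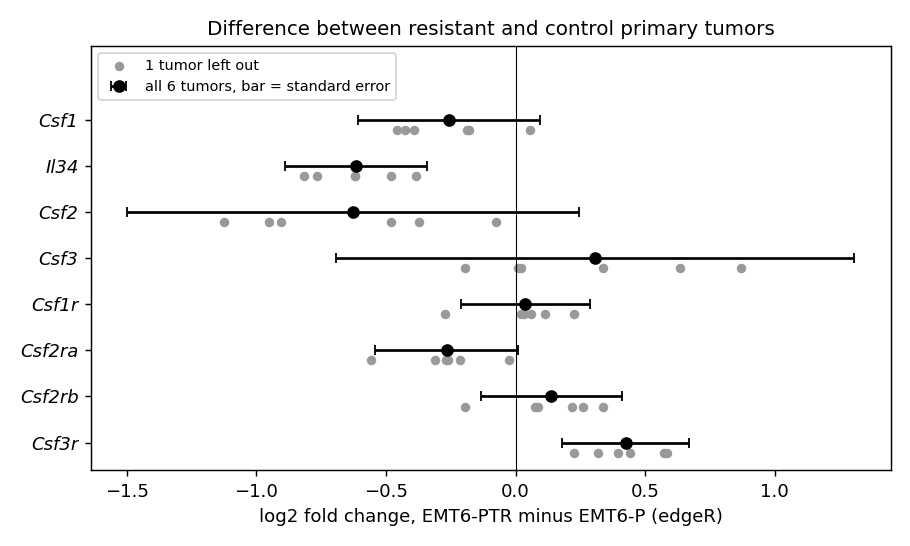
Log2 fold change of EMT6-PTR minus EMT6-P from edgeR (horizontal axis) for the 8 genes, with the standard error as a bar (black), and the same value with 1 tumor left out at a time (grey points). The grey points lie on both sides of 0 for Csf1, Csf3, Csf1r and Csf2rb, and on 1 side for Il34, Csf2, Csf2ra and Csf3r, none of which passed the test.

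The EMT6-PTR tumors also differed among themselves. Replicate 3 had the lowest EMT6-PTR value in 7 of the 8 genes (42.1% of all genes tested) and the lowest of all 6 primary tumors in 6 of 8 (34.5%). Replicate 1 had the highest EMT6-PTR value in 6 of 8 (33.4% of all genes) and the highest of the 6 in 5 of 8 (16.6%). On the log2 CPM scale, and relative to the mean of EMT6-P, the median over the 8 genes was 0.35 in replicate 1, -0.04 in replicate 2 and -0.73 in replicate 3, where the medians over all genes were 0.00, -0.02 and -0.03. The 3 ligands *Csf1*, *Csf2* and *Csf3* in replicate 3 were at -1.19, -2.89 and -3.28 log2 units relative to the EMT6-P mean. The cell cycle genes of that tumor averaged -2.73 log2 units on the same scale and its fibroblast markers, which differed in direction, 1.55. The part of either in the low ligand values was not tested. The mean over its macrophage markers was -0.12, while *Csf1r* was at -0.44.

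**Figure D4:**
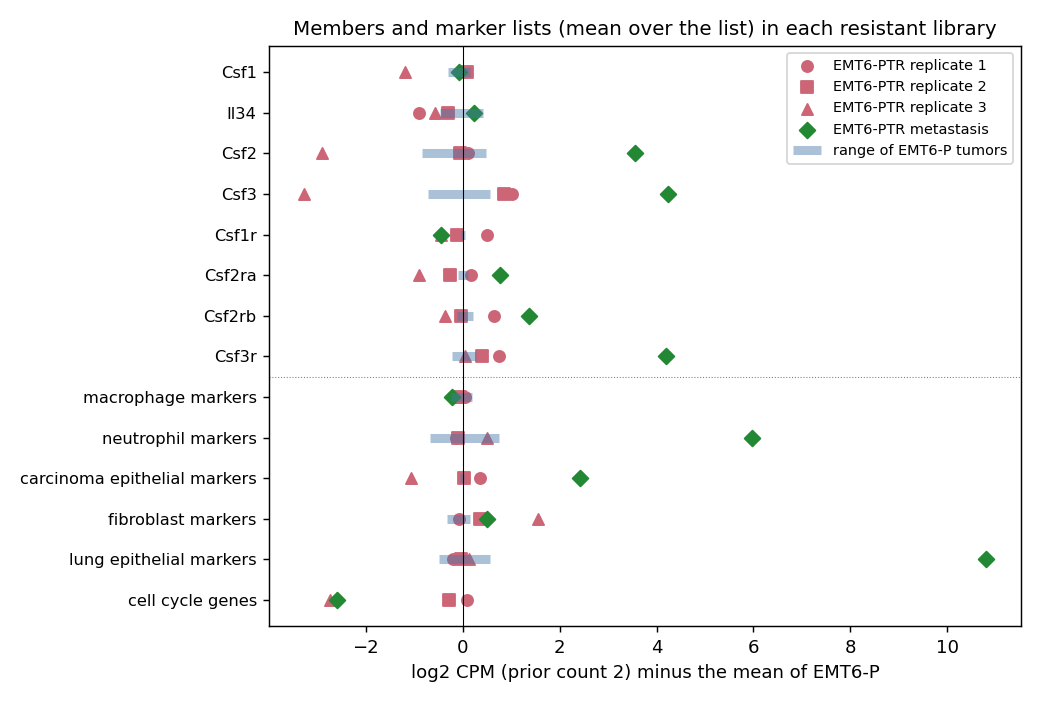
Log2 CPM (prior count 2) minus the mean of EMT6-P (horizontal axis) for the 8 genes and for the mean over 6 lists of marker or cell cycle genes, in the 3 EMT6-PTR tumors (red) and the metastasis (green diamond), with the range of the 3 EMT6-P tumors as a blue band. In EMT6-PTR replicate 3 (triangles) Csf1, Csf2 and Csf3 lie between -3.28 and -1.19, and the metastasis lies above 3 for Csf2, Csf3, Csf3r, neutrophil markers and lung epithelial markers. Markers near 0 counts in the primary tumors make the size of the last 2 depend on the prior count.

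Receptor levels were then set against markers of the cells known to carry them. Within each library, *Csf1r* minus the mean of 12 macrophage markers (among them *Cd68*, *Adgre1* and *C1qa*) came to 1.52, 1.88 and 1.61 log2 units in EMT6-P and to 2.13, 1.59 and 1.35 in EMT6-PTR. The groups overlapped, with the highest and the lowest value both in EMT6-PTR. The means of 1.67 ± 0.19 and 1.69 ± 0.40 (SD, n = 3 each) differed by 0.02, with p = 0.9 in an exact two-sided permutation test. *Csf3r* minus the mean of 12 neutrophil markers had means of 4.10 ± 0.96 and 4.41 ± 0.69 in EMT6-P and EMT6-PTR (SD, n = 3 each, exact permutation p = 0.7). Of these 12 markers, 8 had 3 counts or fewer in at least 1 primary tumor, so that their mean rests in part on the prior count. With the 6 markers that passed the filter on low counts, a set chosen after the data were seen, the means were 1.96 ± 1.16 and 2.19 ± 0.57 (SD, n = 3 each, exact permutation p = 0.9). The ligand against its receptor, *Csf1* minus *Csf1r*, came to -0.04, 0.05 and -0.44 in EMT6-P and to -0.61, 0.07 and -0.90 in EMT6-PTR. Its means were -0.14 ± 0.26 and -0.48 ± 0.50 (SD, n = 3 each, exact permutation p = 0.4). Adjusted over these 3 relations each p was 0.9, and with 3 tumors a group no p under 0.1 was possible.

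Per kilobase of exon, *Csf1* and *Csf1r* stood well above the other 6 genes in the primary tumors. Their levels in EMT6-P were 43.6 ± 7.55 and 43.5 ± 1.13 CPM per kb (SD, n = 3 each), and their ranges overlapped. *Il34* followed at 11.1 ± 3.28, with *Csf2ra* at 8.68 ± 0.616, *Csf2rb* at 6.39 ± 0.890 and *Csf3r* at 3.15 ± 0.556 CPM per kb (SD, n = 3 each). *Csf3* and *Csf2* were lowest at 1.75 ± 0.743 and 1.57 ± 0.702 CPM per kb (SD, n = 3 each). Neighbours in this order overlapped in EMT6-P for *Csf1* and *Csf1r*, *Il34* and *Csf2ra*, and *Csf3* and *Csf2*. In EMT6-PTR, *Csf1r* and *Il34* were the only neighbours whose ranges stayed apart. In the metastasis the order was another, with *Csf3r* first at 57.7 CPM per kb, ahead of *Csf1* at 41.1, *Csf1r* at 32.1 and *Csf3* at 31.8.

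The metastasis showed *Csf2*, *Csf3* and *Csf3r* at levels far from those of the primary tumors. Among the 8 genes, 5 were above all 6 primary tumors (24.9% of the 18412 genes compared) and 0 below (21.2%). At least 2-fold above the EMT6-PTR mean were 5 of 8 (16.2% of genes), and at least 10-fold above it 3 of 8 (4.58%). Without EMT6-PTR replicate 3 these counts were 4 (20.5% of genes) and 2 (4.91%), with *Csf2ra* at 1.75-fold and *Csf3* at 9.95-fold. This is 1 library, so that the folds carry no replicate check and no test.

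*Csf3* reached 1124 estimated counts (44.9 CPM) in the metastasis, against 0.156 to 4.80 CPM in the 6 primary tumors. This was 14.7 times the EMT6-PTR mean, and 96.5% of genes had a smaller fold. Its receptor *Csf3r* reached 208 CPM against 9.67 to 19.1 CPM, 13.6 times the EMT6-PTR mean. *Csf2* reached 363 estimated counts (14.5 CPM) against 0.078 to 1.66 CPM, 17.7 times the EMT6-PTR mean. None of these 3 genes overlapped the primary tumors, and the metastasis was 11.5, 9.36 and 10.9 times the highest EMT6-PTR tumor for *Csf2*, *Csf3* and *Csf3r*.

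Both chains of the GM-CSF receptor were higher by smaller amounts. *Csf2ra* was at 42.8 CPM, 2.06 times the EMT6-PTR mean, and *Csf2rb* at 119 CPM, 2.33 times. *Csf2rb2* was at 33.3 CPM, inside the range of the primary tumors, at 1.12 times the EMT6-PTR mean. The genes of the CSF1R axis lay within the range of the primary tumors. *Csf1* was at 217 CPM (1.13 times the EMT6-PTR mean), *Il34* at 24.8 CPM (1.75 times) and *Csf1r* at 186 CPM (0.719 times, with 25.5% of genes at a smaller fold).

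Markers of other cells moved with these values. The 12 neutrophil markers summed to 3317 CPM in the metastasis, against 17.2 to 57.3 CPM in EMT6-P and 33.4 to 37.9 CPM in EMT6-PTR. Of them 12 of 12 were above all primary tumors, against 24.9% of the 18412 genes compared. *S100a9*, a calcium-binding protein abundant in neutrophils, was at 1545 CPM there and at 6.18 to 29.0 CPM in the primary tumors, and the chemokine receptor *Cxcr2* was at 162 CPM against 1.32 to 2.95. Monocyte markers averaged 2.17 log2 units above the EMT6-P mean but did not move alike. Of the 7, 3 were above all primary tumors (*Ly6c2*, *Chil3* and *F10*) and 1 was below (*Ms4a4c*), against 24.9% and 21.2% of the 18412 genes compared. Chosen after their values were seen, *Ly6c2*, a surface marker of inflammatory monocytes, was at 59.4 CPM against 2.99 to 7.02, and *Chil3* at 394 CPM against 0.0934 to 2.03, while *Ccr2*, the chemokine receptor of these cells, was at 28.1 CPM, within the 13.1 to 130 of the primary tumors.

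The 12 macrophage markers summed to 2335 CPM in the metastasis, within the 1872 to 2953 CPM of the primary tumors. Of the 12, 0 were above all primary tumors and 5 were below them (*Cd68*, *Adgre1*, *C1qa*, *C1qb* and *Ms4a7*, named after their values were seen), and *Lyz2* made up 1077 CPM of the sum. *Csf1r* minus their mean was 1.45 log2 units, within the 1.35 to 2.13 of the primary tumors. *Csf3r* minus the mean of the neutrophil markers was 2.33 log2 units in the metastasis, below the 3.13 to 5.05 of the primary tumors. With only the neutrophil markers that passed the filter it was -0.76, against 1.01 to 3.26. Lung epithelial markers summed to 8092 CPM, against 4.25 to 27.1 CPM in the primary tumors, with 6 of 6 above all of them (24.9% of the genes compared). *Sftpc*, the surfactant gene of alveolar type 2 cells, was at 2348 CPM and *Scgb1a1*, the club cell secretory protein, at 3007 CPM, whereas in the primary tumors they reached no more than 0.189 and 1.07 CPM. Endothelial markers summed to 808 CPM against 130 to 194. Cell cycle genes summed to 222 CPM, between the 198 CPM of EMT6-PTR replicate 3 and the 1000 to 1253 CPM of the other primary tumors. The part of these cells and tissues in the metastasis values of *Csf2*, *Csf3*, *Csf3r*, *Csf2ra* and *Csf2rb* was not tested.

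Cytokines known to induce *Csf2* and *Csf3* were read from a list of 14 inducers and their signalling genes. Between the primary groups 0 of the 13 tested passed, with a median log2 fold change of 0.10. *Rela*, the p65 subunit of NF-kB, was at 90.5, 86.9 and 83.7 CPM in EMT6-P and at 77.5, 65.3 and 55.5 CPM in EMT6-PTR, without overlap, with a log2 fold change of -0.40 (edgeR adjusted p = 0.433). Of the 13 tested, 1 had all EMT6-PTR tumors above EMT6-P and 1 all below, against 9.52% and 11.8% of all genes. *Tlr4* (0.41) and *Il1r1* (0.49), receptors of bacterial lipopolysaccharide and of IL1, had edgeR adjusted p of 0.438 and 0.471. In the metastasis 12 of 14 were above all primary tumors (24.9% of the 18412 genes compared), though *Il17a*, 1 of the 12, had only 2 counts there. The 12 included the cytokines *Il1b* (1259 CPM, 33.8 times the EMT6-PTR mean), *Tnf* (131 CPM, 13.4 times), *Il1a* (111 CPM, 51.3 times) and *Il6* (95.2 CPM, 50.3 times), which were chosen after their values were seen.

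In the primary tumors these inducers also differed between EMT6-PTR tumors. *Il1b* was at 28.7, 38.3 and 22.1 CPM in EMT6-P and at 65.8, 43.7 and 2.34 CPM in EMT6-PTR. *Tnf* was at 10.9, 10.9 and 5.94 CPM in EMT6-P and at 15.01, 12.6 and 1.68 CPM in EMT6-PTR. For both, and for *Il6*, replicates 1 and 2 of EMT6-PTR were above and replicate 3 was below all EMT6-P tumors, the order seen for *Csf3*. *Il1a* differed, at 1.61, 5.00 and 0.990 CPM in EMT6-P and at 4.63, 1.62 and 0.274 CPM in EMT6-PTR. Its replicates 1 and 2 of EMT6-PTR thus lay within the EMT6-P range. These cytokines were chosen after their values were seen. The part of the inducers in the *Csf2* and *Csf3* values, here and in the metastasis, was not tested. Of 7 genes that control the decay of such cytokine messages, 0 passed the test between the groups, with a median log2 fold change of 0.10. *Zfp36l1* (0.41), *Elavl1* (-0.48) and *Hnrnpd* (-0.39), which bind AU-rich messages, had the smallest p-values of these, with edgeR adjusted p of 0.462, 0.493 and 0.504.

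Downstream of the receptors, 0 of 23 signalling genes passed the test between the primary groups, with 10 above 0 and a median log2 fold change of -0.02. The adaptor *Tyrobp* (-0.47), the transcription factor *Stat3* (0.36) and the inositol phosphatase *Inpp5d* (0.28) had the smallest p-values, with edgeR adjusted p of 0.454, 0.470 and 0.485. *Stat3* was at 169, 175 and 164 CPM in EMT6-P and at 186, 196 and 269 CPM in EMT6-PTR, without overlap. All EMT6-PTR tumors were above EMT6-P in 3 of the 23 genes and below in 0, against 9.52% and 11.8% of all genes. Among 7 myeloid transcription factors tested, 0 passed and the median was 0.04. *Spi1*, the PU.1 factor that drives myeloid receptor genes, had a log2 fold change of -0.27 (edgeR adjusted p = 0.616).

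Of 18 related haematopoietic cytokines and receptors, 12 were tested, 0 passed, and the median log2 fold change was 0.30. Thrombopoietin, *Thpo*, was at 2.63, 1.59 and 2.36 CPM in EMT6-P and at 2.88, 12.1 and 10.2 CPM in EMT6-PTR, with a log2 fold change of 1.93 and an edgeR adjusted p of 0.421. It was the 1 gene of the 12 with every EMT6-PTR tumor above EMT6-P, and 0 had every one below, against 9.52% and 11.8% of all genes. Stem cell factor, *Kitl*, was at 8.14, 2.94 and 8.35 CPM against 6.89, 14.8 and 52.2 CPM. Its log2 fold change was 1.93 (edgeR adjusted p = 0.437), with the highest value in replicate 3. *Tslp* had a log2 fold change of 2.12 (edgeR adjusted p = 0.468), and was at 24.0 CPM in replicate 3 against 1.00 and 5.96 CPM in the other EMT6-PTR tumors. *Epo* had 0 counts in every library, *Il3* at most 1 count and *Il5* at most 3 counts, so that none of these was clearly detectable at this depth.

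Over all lists read beside the 8 genes, 143 of 180 genes were tested and 0 had an adjusted p under 0.05 in edgeR. Without adjustment 8 of the 143 had a p under 0.05 in edgeR, where 11.4% of all 15645 genes tested did. They were *Thpo*, *Kitl*, *Rela*, *Plac8*, *Hdc*, *Cd8a*, *Dcn* and *Ager*. DESeq2 called 1 gene of these lists, *Ager*, a marker of alveolar type 1 cells, with an adjusted p of 0.0021. It was at 1.61, 1.45 and 1.79 CPM in EMT6-P and at 3.14, 26.1 and 12.0 CPM in EMT6-PTR, against 756 CPM in the metastasis. In the primary tumors the carcinoma markers *Krt8* and *Krt18*, keratins of simple epithelium, were at 505 to 1898 and 73.8 to 449 CPM, with *Epcam* low at 4.79 to 10.6 CPM.

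The genes whose levels followed those of each member most closely over the 7 libraries were sought among the 15645 tested, by the root mean square (RMS) difference of log2 CPM after centring each gene on its mean. For *Csf2* these were *Cxcl1* (0.22), *Tnf* (0.29) and *Gm49339* (0.35), and for *Csf3* *Cxcl1* (0.43), *Tnf* (0.44) and *Lpl* (0.49). *Cxcl1*, a chemokine for neutrophils, was at 39.0, 41.2 and 18.8 CPM in EMT6-P, at 47.0, 35.8 and 5.35 CPM in EMT6-PTR and at 513 CPM in the metastasis. For *Csf3r* the nearest were *Pdzd2* (0.15), *Gpx3* (0.20) and *Sort1* (0.21), for *Csf2ra* *Il11* (0.12), *Spi1* (0.13) and *Ppic* (0.16), and for *Csf2rb* *Rbm47* (0.10), *Nfam1* (0.11) and *Tcn2* (0.12). *Csf1r* was followed by *Elf4*, *Etl4* and *Apaf1* (0.08 each), *Csf1* by *Ticam1* (0.07), *Gm8822* (0.08) and *Mthfd1l* (0.10), and *Il34* by *Gm8325* (0.07), *Gm10327* (0.12) and *Gm15491* (0.15). The 7 points of each profile share their libraries and scaling, and for *Csf2*, *Csf3* and *Csf3r* much of the profile is the metastasis.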

How the data were processed

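The authors sequenced stranded, polyadenylated libraries of 7 tissues (3 EMT6-P, 3 EMT6-PTR, 1 metastasis). Per the labels and methods, reads were checked with FastQC 0.11.5, aligned to GRCm38 with STAR 2.6.0a and quantified with RSEM 1.3.1. The deposited values are the authors' RSEM estimated counts per gene, unnormalized. RSEM divides reads that fit near-identical genes by estimation, and 3 of the 8 genes (*Csf2*, *Csf1r*, *Csf2rb*) had fractional values.

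Counts were rounded. Genes passing filterByExpr were scaled by upper quartile and tested between the primary groups with edgeR 4.0.16 (glmQLFit, glmQLFTest; R 4.3.3), Benjamini-Hochberg adjusted over all genes, threshold 0.05. The standard error is the log2 fold change divided by the square root of F. Log2 CPM used a prior count of 2. Symbols (53274 of 53465 identifiers), coordinates, exon lengths and transcript sequences came from GENCODE M21 on GRCm38, a later release than the one the authors used. Ratios were compared by exact permutation over 20 assignments. In simulated counts of this comparison, edgeR recovered 90% of 200 genes changed by 2 on the log2 scale, with 12 false calls among 15927 genes. The simulated dispersion was 0.1, below the common dispersion of 0.1395 in the primary tumors. The recovery therefore does not give the share that would pass in these tumors. Standard errors of the members there ran from 0.25 (*Csf3r*) to 1.00 (*Csf3*) on the log2 scale.

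Members and lists were chosen with earlier results of these data known. Named were all 8 members, up to 3 genes per list with the smallest p, and the 3 nearest profiles per member. Others were chosen after their values were seen. Alternatives were TMM, DESeq2 1.42.0, limma-voom (limma 3.58.1), the metastasis in the fit, no filter, a minimum of 10 counts in each tumor, a replicate block, a prior count of 0.5, the median over markers, only the neutrophil markers passing the filter and the summed *Csf2rb* and *Csf2rb2* counts (both added after the data were seen), and leaving out each tumor. Floors of 3 counts cover counting error only.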

Additional observations from a re-analysis of the deposited data

How the results depend on the processing

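In each alternative fit, 0 of the genes tested among the 8 had an adjusted p under 0.05, with values between 0.196 and 0.998. All 8 were tested in each except with at least 10 counts in every sample, which left 6, without *Csf2* and *Csf3*, and with *Csf2rb* and *Csf2rb2* summed, which was read for *Csf2rb* only. The number of genes called over the whole table was 0 in each alternative except DESeq2, which called 153 (81 higher, 72 lower) and 1 gene of the other lists. With 1 tumor left out, both counts stayed at 0.0 and the count at an unadjusted p under 0.05 ranged from 618 to 3234, against 1786.

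Directions turned for *Csf3* and *Csf1r* under limma-voom (-0.72 and -0.016) and the replicate block (-0.32 and -0.017), and for *Csf3r* minus neutrophil markers with the median of the markers (-0.23). Without EMT6-PTR replicate 1, *Csf3* was at -0.19, *Csf1r* at -0.27 and *Csf2rb* at -0.20, and without replicate 3 *Csf1* was at 0.055. Over the tumors left out, log2 fold changes ranged from -0.46 to 0.055 for *Csf1*, -0.82 to -0.38 for *Il34*, -1.13 to -0.075 for *Csf2*, -0.19 to 0.87 for *Csf3*, -0.27 to 0.23 for *Csf1r*, -0.56 to -0.026 for *Csf2ra*, -0.20 to 0.34 for *Csf2rb* and 0.23 to 0.58 for *Csf3r*. *Csf1r* minus macrophage markers ranged from -0.20 to 0.19, *Csf3r* minus neutrophil markers from -0.17 to 0.79 and *Csf1* minus *Csf1r* from -0.61 to -0.12. The log2 fold of the metastasis over EMT6-PTR ranged from -0.14 to 0.38 for *Csf1*, 3.61 to 4.61 for *Csf2*, 3.31 to 4.36 for *Csf3*, 0.81 to 1.33 for *Csf2ra*, 1.02 to 1.55 for *Csf2rb* and 3.61 to 3.96 for *Csf3r*. The cause of these shifts was not tested.

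Same-numbered tumors of both groups deviated together with correlations of 0.26, 0.25 and 0.04 across genes, and only the number is shared. The replicate block left 0 genes called and 1268 at an unadjusted p under 0.05. Few counts limit *Csf2* and *Csf3*, and 1 library limits the metastasis.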
